A study of Mus musculus with 8 samples.

Results

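The Hippo pathway and its YAP regulators were examined in mouse trophectoderm, the outer epithelium of the blastocyst that gives rise to the placenta. The 10 genes chosen by name were Stk3 and Stk4 (the upstream kinases), Sav1 (their scaffold), Lats1 and Lats2 (the kinases that phosphorylate YAP), Nf2, Amot and Amotl2 (membrane adaptors), and Yap1 and Wwtr1 (YAP and TAZ, the coactivators that the pathway restrains). The rule uses no measured value, though earlier results of these data were known when the genes were chosen. Of these, 8 were read from 1 probe set each, out of 14860 genes measured under a single symbol and 16015 probe sets tested. Lats1 and Stk3 were not analysed here.

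The high fat diet group was 4 pools of trophectoderm from dams fed Teklad 06414, and the control diet group was 4 pools from dams fed Lab Diet 5015. All parents were C57BL/6J, and the dams ate their diet from weaning to mating at 16 weeks of age. The tissue was cut at embryonic day 4.5 from the side opposite the inner cell mass, and each array held RNA pooled from 5 blastocysts, amplified repeatedly before hybridisation. The labels call the arrays biological replicates, but which dams gave each pool is unknown here, and all p-values rest on how far pools of the same diet differ.

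In the Hippo cascade the Ste20-like kinase Stk4 acts with Sav1 on the Lats kinases, which need the coactivator Mob1a, and Lats phosphorylation holds YAP and TAZ in the cytoplasm. Nf2 and the angiomotins bring the Lats kinases to membranes and also bind YAP directly. In the mouse blastocyst the outer, polarised cells keep this cascade low, so that YAP enters the nucleus, binds Tead4 and switches on trophectoderm genes such as Cdx2 and Gata3, while in inner cells the cascade is active.

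Short promoter stretches are shown because YAP acts through TEAD factors, whose binding core is GGAATG, and because Amotl2 and Lats2 are known as feedback targets of YAP. The motif was searched on both strands (the other strand reads CATTCC) in 300-base windows running from 250 bases before to 50 bases after each annotated start, from RefSeq sequences of build GRCm38.p6. All 8 measured genes were matched, and 5 of them held the motif in at least 1 window, against 14.7% of all 32851 windows and 16.6% of 27025 genes with a window. The stretches read 5′ to 3′ on the gene's strand, with the motif in capitals.
Yap1, chr9:8004720-8004749, minus strand: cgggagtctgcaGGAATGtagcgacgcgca
Wwtr1, chr3:57576029-57576058, minus strand: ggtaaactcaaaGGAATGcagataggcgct
Lats2, chr14:57746102-57746131, minus strand: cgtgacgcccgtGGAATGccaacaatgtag
Amotl2, chr9:102717727-102717756, plus strand: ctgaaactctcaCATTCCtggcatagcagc
Sav1, chr12:69987091-69987120, minus strand: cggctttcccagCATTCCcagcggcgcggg
The Lats2 match lay in 1 of the 2 windows of that gene, beginning 5 bases into the transcript, and the other 4 genes had theirs before the start. The Yap1, Wwtr1 and Lats2 stretches hold the core as GGAATG, and the Amotl2 and Sav1 stretches as CATTCC. Nf2, Amot and Stk4 held no match in these windows. A match is a run of letters and not a shown binding site.

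The values are log2 signals, and all differences are high fat diet minus control diet. Signals of high fat diet arrays were shifted upward, with array medians of 5.76 to 5.96 against 5.60 to 5.71 on control diet arrays, and the median difference of all tested probe sets was +0.22. High fat diet replicate 3 stood apart, with a mean correlation with the other arrays of 0.832, against 0.879 to 0.890 for the other 7. Background was taken from 842 probe sets of odorant, pheromone and taste receptors, which are known from sensory cells, as their 95th percentile on the same array, 6.15 to 6.65 on high fat diet arrays and 5.88 to 6.13 on control diet arrays. Of 13 measured trophectoderm markers, 10 lay above it on all 8 arrays. So did 5 of 10 markers of the inner cell mass and epiblast (Pou5f1, Klf2, Klf4, Fgf4 and Zfp42), 5 of 10 of primitive endoderm, 3 of 12 of uterus and 1 of 9 of blood and immune cells, while Sox2 and Esrrb of the inner cell mass list and the leukocyte marker Ptprc lay above it on no array. Pou5f1, a pluripotency factor, read at 9.43, 9.66, 8.15 and 8.82 in high fat diet pools, against 7.83, 11.72, 7.02 and 9.20 in control diet pools. Of these lists, 0 of 13 trophectoderm, 4 of 10 inner cell mass, 5 of 10 endoderm, 7 of 12 uterine and 6 of 9 blood markers were higher at unadjusted p-values below 0.05, and 2 trophectoderm markers were lower, where 30.1% of all tested probe sets were higher and 1.79% lower. None passed after adjustment, and 9 of the 12 uterine and 5 of the 9 blood markers lay above background on no array. Ptprc, Cd74, Adgre1 and Tyrobp, counted among the higher blood markers, are among those 5. The mean level over the inner cell mass markers ran from 6.73 to 6.96 in high fat diet pools and from 6.21 to 7.58 in control diet pools. The mean over the uterine markers ran from 5.49 to 5.92 in high fat diet pools and from 5.25 to 5.41 in control diet pools. The part of such cells in the values below was not tested. In pooled tissue, fewer cells of a type and less RNA per cell cannot be told apart.

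None of the 8 Hippo genes passed the test for a difference between maternal diets. By limma with Benjamini-Hochberg adjustment over all tested probe sets, 0 of 8 were called, where 0.00624% of all probe sets (1 probe set) were called. Adjusted p-values of the 8 ran from 0.18 to 0.95. With unadjusted p-values below 0.05 as the rule, 0 of 8 genes were higher and 0 of 8 lower, against 30.1% and 1.79% over the whole tested table. The diet groups overlapped on every one of the 8, where 25.4% of all probe sets lay apart in the higher direction and 0.855% in the lower direction. The median difference over the 8 genes was +0.07, below the +0.22 of all tested probe sets, and 7 of 8 lay below that median. It was +0.03 without high fat diet replicate 3. The sign of small differences depends on the scaling between arrays: 6 of 8 genes were above 0 in the deposited values (78.7% of all tested probe sets were), and 1 of 8 after median centring, quantile normalization or cyclic loess.

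**Figure D1:**
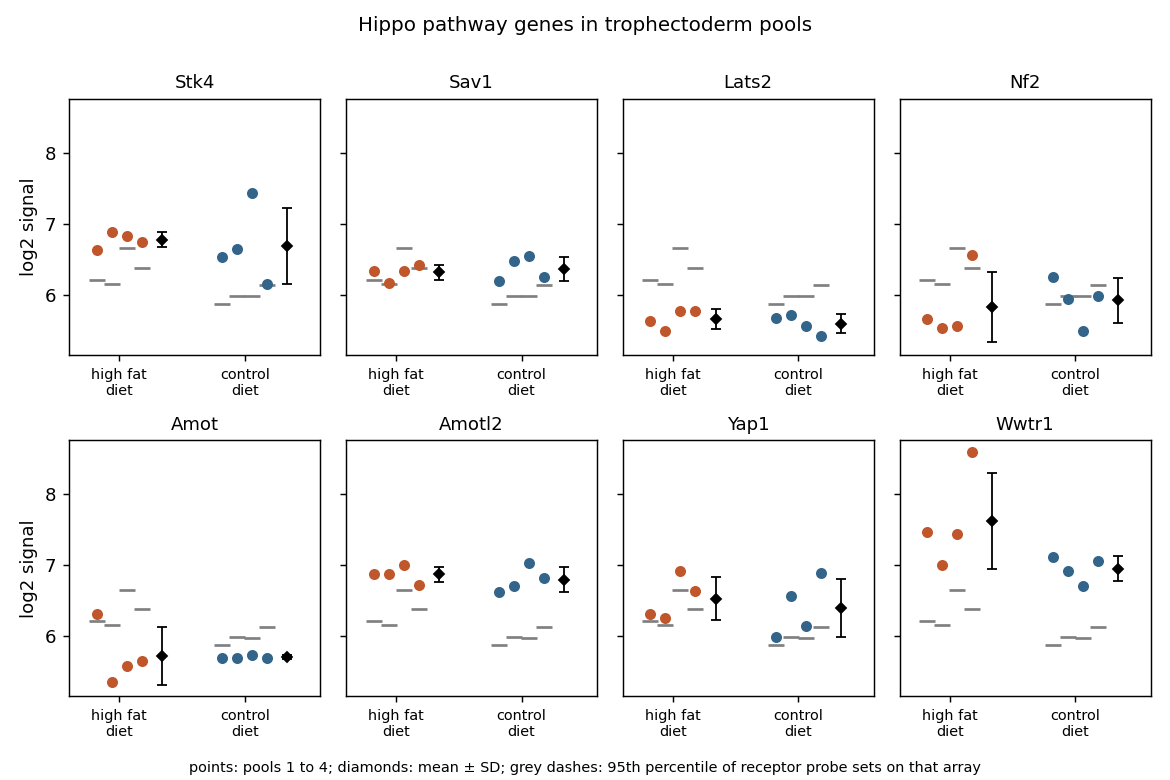
Log2 signal (vertical axis) of the 8 measured Hippo genes in each pool, high fat diet in orange and control diet in blue, pools 1 to 4 from left to right, with mean ± SD (diamonds, n = 4 each) and the receptors' 95th percentile of each array (grey dashes). The diet groups overlap on all 8 genes, and Lats2 lies under the dashes on all 8 arrays.

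At the top of the cascade neither the kinase nor its scaffold passed. Stk4 read at 6.64, 6.89, 6.83 and 6.75 in high fat diet pools, against 6.53, 6.65, 7.43 and 6.16 in control diet pools. Its high fat diet values lay close together inside the wider control diet range (mean 6.78 ± 0.11 against 6.69 ± 0.53, SD, n = 4 each). The limma difference was +0.08 with a 95% interval from -0.50 to +0.67 (adjusted p = 0.82). Sav1, which couples Stk4 to the Lats kinases, read at 6.34, 6.17, 6.34 and 6.41 in high fat diet pools, against 6.20, 6.48, 6.55 and 6.25 in control diet pools. Its difference of -0.05 had the narrowest interval but 1 among the 8 genes, -0.30 to +0.20 (limma adjusted p = 0.75). Sav1 lay above background on 3 of 4 high fat diet and 4 of 4 control diet arrays, and Stk4 on all 8. With cyclic loess Sav1 differed by -0.35 (unadjusted p = 0.018, limma adjusted p = 0.53).

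Lats2, the kinase that phosphorylates YAP, was not above background on any array. It read at 5.62, 5.48, 5.77 and 5.77 in high fat diet pools, against 5.68, 5.72, 5.56 and 5.42 in control diet pools. Its groups overlapped, and the measured difference of +0.07 (95% interval -0.18 to +0.31, limma adjusted p = 0.64) lies within background, so no level of Lats2 is read from it.

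Nf2, the membrane adaptor also called merlin, read at 5.66, 5.53, 5.56 and 6.56 in high fat diet pools, against 6.26, 5.94, 5.49 and 5.99 in control diet pools. It lay above background on 1 of 4 arrays of each diet, and high fat diet replicate 4 was well above the other 3 pools of its diet. The limma difference was -0.09 (95% interval -0.71 to +0.53, adjusted p = 0.81), and it was -0.34 without that pool.

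The angiomotins bind YAP and recruit the Lats kinases, and neither of the 2 measured passed. Amotl2 read at 6.88, 6.88, 7.0 and 6.72 in high fat diet pools, against 6.62, 6.71, 7.03 and 6.83 in control diet pools. All 8 values lay above background, and the difference of +0.07 had a 95% interval from -0.19 to +0.33 (limma adjusted p = 0.64). Amot read at 6.31, 5.36, 5.58 and 5.65 in high fat diet pools, against 5.69, 5.70, 5.74 and 5.70 in control diet pools. The control diet values of Amot were nearly equal (SD 0.02, n = 4) and the high fat diet values spread around them (SD 0.41, n = 4), with only high fat diet replicate 1 above background. The difference of +0.02 (95% interval -0.43 to +0.47, limma adjusted p = 0.95) was -0.18 without that pool.

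Yap1 itself read at 6.31, 6.25, 6.91 and 6.64 in high fat diet pools, against 5.98, 6.57, 6.14 and 6.89 in control diet pools. The ranges of the groups lie almost on top of each other. All 8 values were above background, some narrowly: 6.25 against 6.15 on high fat diet replicate 2 and 5.98 against 5.88 on control diet replicate 1. Above the receptors' 99th percentile Yap1 lay on 0 of 4 high fat diet and 1 of 4 control diet arrays. The difference was +0.13 with a 95% interval from -0.42 to +0.69 (limma adjusted p = 0.70). Without high fat diet replicate 3 it was 0.0036, and with cyclic loess and all arrays it was -0.17. The interval holds for the signal of this probe set in the deposited values, with the array-wide shift left in. Because some values lay only narrowly above background, no bound on the Yap1 transcript is read from it.

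Wwtr1, which encodes TAZ, differed more than the other 7 genes but did not pass. It read at 7.47, 7.01, 7.44 and 8.60 in high fat diet pools, against 7.11, 6.92, 6.71 and 7.06 in control diet pools. High fat diet replicate 4 was the highest, replicates 1 and 3 lay above all control diet pools, and replicate 2 lay among them. The means were 7.63 ± 0.68 and 6.95 ± 0.18 (SD, n = 4 each), a difference of +0.68 with an SE of 0.32 and a 95% interval from -0.07 to +1.42 (limma adjusted p = 0.18). Relative to the median of all tested probe sets the difference was +0.46. It was +0.35 without high fat diet replicate 4, +0.88 without high fat diet replicate 2 and +0.74 without high fat diet replicate 3. It stayed above 0 in every setting run.

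**Figure D2:**
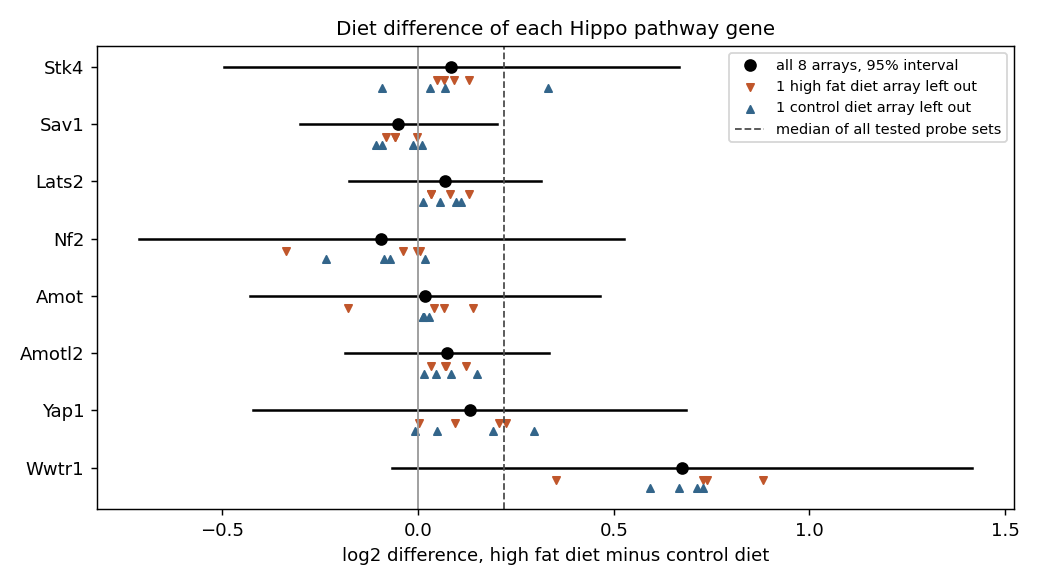
Log2 difference, high fat diet minus control diet (horizontal axis), for each measured Hippo gene with all 8 arrays (black points with the 95% limma interval) and with 1 array left out (orange for a high fat diet array, blue for a control diet array). Every interval crosses 0 (grey line), and the dashed line marks the median of all tested probe sets, +0.22.

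Related genes were compared within each array, where an array-wide shift cancels. The log2 signal of Yap1 minus that of Wwtr1 averaged -1.10 ± 0.63 in high fat diet pools and -0.56 ± 0.42 in control diet pools (SD, n = 4 each). The diet difference of -0.54 had an exact two-sided permutation p of 0.23 (adjusted to 0.46 over the 2 pairs compared), where the smallest p this design allows is 0.0286. For Amot minus Amotl2 the averages were -1.15 ± 0.43 in high fat diet pools and -1.09 ± 0.16 in control diet pools, a difference of -0.06 (exact permutation p = 0.83, adjusted to 0.83). Amot lay above background on 1 of 8 arrays, so the difference of that pair is taken against a probe set at background. Yap1 and Wwtr1 were not shown to respond differently to diet. Other pairs could not be formed without Lats1 and Stk3.

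Across the 8 arrays, after subtraction of each array's median, the genes whose pattern was most like that of Yap1 among 14859 others were Xkr8 (Pearson r = 0.946), Olfr74 (0.943), Ercc6l (0.927), Ext2 (0.927) and Adamtsl1 (0.920). These are the highest of many correlations over 8 arrays that share their normalization, and they are given as a description. Olfr74 is an odorant receptor, of the kind whose probe sets were taken as background. Yap1 and Wwtr1 followed each other little, with r = 0.10 over the same arrays. Wwtr1 and Amotl2 had r = -0.74, and Amotl2 and Stk4 had r = 0.68, the largest in size of each sign among the 28 pairs of the 8 genes.

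The wider pathway was read from 6 lists of 92 genes, of which 72 were measured and 0 were called by limma. Over these 72 genes the median difference was +0.25, beside +0.22 over all tested probe sets. At unadjusted p-values below 0.05, 19 were higher and 5 lower (30.1% and 1.79% over all tested probe sets), and groups lay apart on 16 in the higher and 2 in the lower direction (25.4% and 0.855%).

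**Figure D3:**
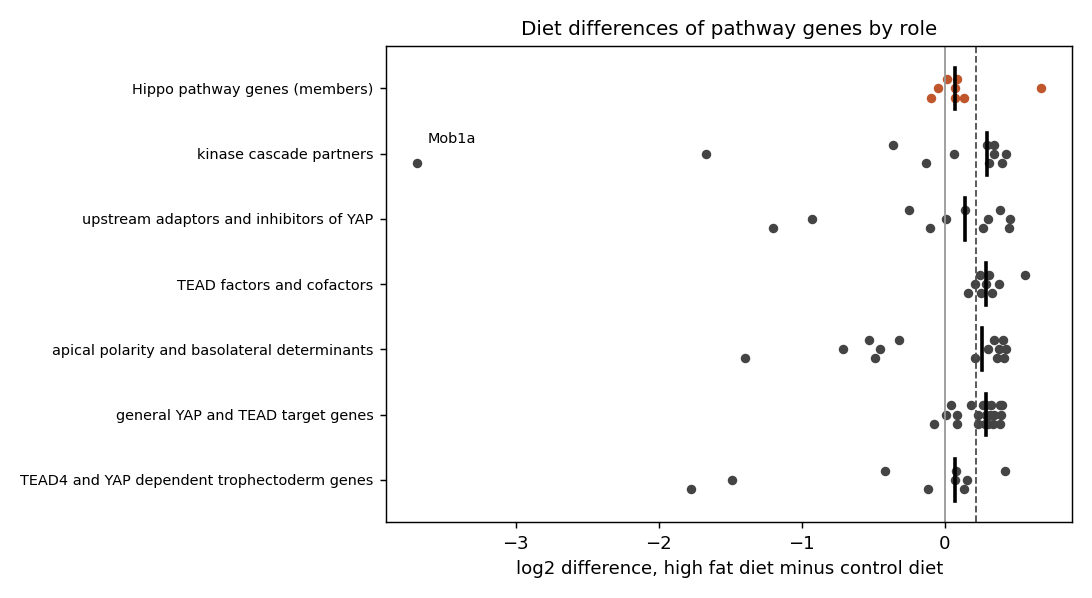
Log2 difference, high fat diet minus control diet (horizontal axis), of each measured gene, by role, with the median of each list (black bar), 0 (grey line) and the median of all tested probe sets (dashed line). Most genes lie near the dashed line, and Mob1a of the kinase cascade is drawn at its measured -3.69, where only a bound can be read because its high fat diet values lay below background.

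Mob1a, the coactivator that the Lats kinases need, had the largest measured difference of these 72 genes, against high fat diet values that lay below background, so its rank is not established. On its brighter probe set (6947401) it read at 4.70, 4.72, 4.61 and 4.65 in high fat diet pools, against 7.09, 7.29, 10.78 and 8.28 in control diet pools. Every high fat diet pool lay far below every control diet pool, and the high fat diet values were nearly equal. All 4 high fat diet values lay below background and all 4 control diet values above it, so the size is only a bound on the means of these pools. It was at least 4.03-fold lower against the receptors' 95th percentile and at least 2.37-fold lower against the 99th. These bounds make no allowance for the spread between pools. Without control diet replicate 3 these bounds were 2.30-fold and 1.35-fold. The measured difference of -3.69 (SE 0.76) did not pass the limma threshold (adjusted p = 0.115), and it was -2.88 without control diet replicate 3. Over all alternatives its adjusted p stayed between 0.07 and 0.39 on this probe set.

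The other Mob1a probe set (6947400) did not show this pattern. It read at 5.05, 8.27, 5.09 and 4.99 in high fat diet pools, against 5.43, 5.06, 5.79 and 5.16 in control diet pools, a difference of +0.49 (SE 0.73, limma adjusted p = 0.64). High fat diet replicate 2 lay above background on it, and the other 7 arrays lay below. The probe sets of this gene therefore disagree, and which transcripts each one reads is not stated in the sources. Mob1b, its close paralog, was not analysed here.

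**Figure D4:**
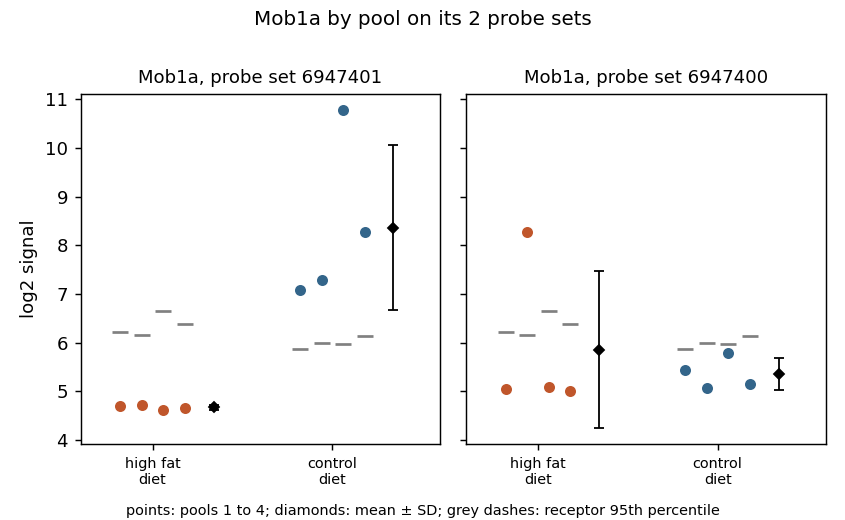
Log2 signal (vertical axis) of Mob1a in each pool on its 2 probe sets, high fat diet in orange and control diet in blue, with mean ± SD (diamonds, n = 4 each) and the receptors' 95th percentile of each array (grey dashes). The brighter probe set lies at 4.61 to 4.72 in the high fat diet pools and at 7.09 to 10.78 in the control diet pools, and the other lies near background in all pools but 1.

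Among the other 10 measured partners of the kinase cascade, Mink1, a kinase of the Map4k family that can act on Lats, read at 6.44, 6.44, 6.76 and 6.47 in high fat diet pools, against 6.09, 6.09, 6.16 and 6.16 in control diet pools. The groups lay apart, as on 25.4% of all tested probe sets in the higher direction. The difference of +0.40 was +0.18 relative to all tested probe sets (limma adjusted p = 0.115), and it was +0.10 with cyclic loess. Rassf5, which binds the upstream kinases, differed by +0.43 but lay above background on 0 of 8 arrays. In this list 2 of 11 genes were higher (Mink1 and Rassf5) and 2 lower (Mob1a and Taok1) at unadjusted p-values below 0.05. Over all tested probe sets the shares were 30.1% higher and 1.79% lower. Taok1, a kinase upstream of the cascade named after its values were seen, differed by -1.67 on its brighter probe set (limma adjusted p = 0.13), by -1.07 there without control diet replicate 3, and by -0.17 on the other probe set.

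Of 11 measured adaptors and inhibitors of YAP, 2 read higher and 0 lower at an unadjusted p under 0.05. The shares over all tested probe sets were 30.1% and 1.79%. The median difference was +0.14, or -0.04 with median centring, -0.05 with quantile normalization and +0.02 with cyclic loess. They were Wtip, a LIM protein that restrains Lats, with 7.35, 7.12, 7.41 and 7.23 in high fat diet pools against 6.79, 6.70, 6.79 and 6.99 in control diet pools, and Ptpn14, a phosphatase that holds YAP in the cytoplasm. Wtip differed by +0.46 and Ptpn14 by +0.39 (limma adjusted p = 0.115 for each), or by +0.19 and +0.09 with cyclic loess. The groups lay apart on each, as on 25.4% of all tested probe sets in the higher direction. Ajuba, another LIM protein, differed by +0.27 and lay above background on 0 of 8 arrays.

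Of the 9 measured TEAD factors and cofactors, 2 were higher and 0 lower at unadjusted p-values below 0.05 (30.1% and 1.79% over all tested probe sets). The median difference was +0.29, or +0.01 with cyclic loess. All 9 differences were above 0 in the deposited values and with quantile normalization, 8 after median centring and 5 with cyclic loess. In the deposited values 78.7% of all tested probe sets were above 0. Tead3 read at 7.48, 6.94, 7.86 and 7.24 in high fat diet pools, against 6.86, 6.86, 6.71 and 6.86 in control diet pools, a difference of +0.56 (limma adjusted p = 0.12) that was +0.40 without high fat diet replicate 3. Vgll2, a cofactor of TEAD, and Trp73, a transcription factor that binds YAP, differed by +0.29 and +0.31, or by +0.04 and +0.01 with cyclic loess, and Trp73 by +0.17 without high fat diet replicate 3. Tead4, the TEAD factor required for trophectoderm, was added after its values were seen. It read at 8.08, 8.08, 8.37 and 7.94 in high fat diet pools, against 7.86, 7.50, 8.21 and 7.58 in control diet pools, with overlapping groups and a difference of +0.33 (limma adjusted p = 0.22).

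General YAP and TEAD targets known from other cells were mostly at background. Of 21 measured, 17 lay above background on no array and 2 on all 8. At an unadjusted p under 0.05, 10 of 21 read higher and 0 lower, against 30.1% and 1.79% over all tested probe sets. Ptpn14, already counted above among the adaptors, is among these 10. The median difference was +0.29, or +0.03 with cyclic loess. Gadd45b differed by +0.34 and Fgf1 by +0.40 (limma adjusted p = 0.115 for each), with both genes above background on 0 of 8 arrays. Ccn1 and Ccn2, the targets most often used as YAP readouts, were added after their values were seen. Ccn1 differed by +0.19 and was above background on 0 of 8 arrays, and Ccn2 differed by +0.31 (limma adjusted p = 0.36 and 0.16), with the sign of Ccn1 turned by quantile normalization and cyclic loess. Ccn2 differed by +0.12 with median centring and +0.01 with cyclic loess, and Ccn1 by +0.07 when high fat diet replicate 3 was left out.

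Of 9 measured trophectoderm genes listed as dependent on Tead4 and YAP, 0 read higher and 2 lower at an unadjusted p under 0.05. All 9 are also among the 13 trophectoderm markers above, and the 2 lower genes, Fgfr2 and Gata3, are the 2 lower markers there. It is therefore the same result given again, and the part of trophectoderm content in it was not tested. Over all tested probe sets 30.1% were higher and 1.79% lower, and the dependence of the 9 genes was not tested here. Their median difference was +0.07, or -0.12 with median centring and -0.10 with quantile normalization or cyclic loess. Fgfr2, a growth factor receptor, read at 8.11, 7.13, 7.65 and 6.74 in high fat diet pools, against 9.94, 9.31, 9.68 and 7.81 in control diet pools. Gata3 read at 10.70, 10.40, 9.53 and 7.97 in high fat diet pools, against 11.23, 11.11, 11.42 and 10.81 in control diet pools. The groups lay apart on Gata3, as on 0.855% of all tested probe sets in the lower direction, and overlapped on Fgfr2. Gata3 differed by -1.49, or by -0.93 when high fat diet replicate 4 was left out. Neither gene passed (limma adjusted p = 0.13 for Gata3 and 0.115 for Fgfr2), and Krt18 and Cdx2, other genes of this list, differed by +0.42 and +0.08 with overlapping groups. Krt18 differed by +0.13 without control diet replicate 4 and by +0.81 with cyclic loess. The sign of Cdx2 turned with median centring and cyclic loess.

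Polarity proteins set Hippo activity in outer cells. Of 14 measured polarity genes, 4 read higher and 1 lower at an unadjusted p under 0.05, against 30.1% and 1.79% over all tested probe sets. The median difference of the 14 was +0.26, or -0.03 with cyclic loess. Beside the genes described next, the higher ones were Pard6a (+0.38) and Pard6g (+0.37), adaptors of the apical polarity complex, both named after their values were seen. Scrib and Llgl1, basolateral polarity proteins, differed by +0.42 and +0.35, and Ctnnb1, which encodes beta-catenin, by -0.53 (limma adjusted p = 0.12 for each). With cyclic loess the differences were +0.12 for Scrib, +0.08 for Llgl1, +0.09 for Pard6a, +0.18 for Pard6g and -0.71 for Ctnnb1. Llgl1 and Pard6g were above background on 0 of 8 arrays.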

How the data were processed

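The authors deposited log2 probe set values from Affymetrix arrays. RMA and Partek are named in the submitters' processing notes, with no version or setting. Per the labels' protocols, the Ovation PICO WTA kit and then the TransPlex WTA kit amplified the cDNA, which can widen the spread between pools for dim transcripts. Values ran from 2.67 to 14.69, all 8 columns were matched to samples, and no genome build is named.

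The platform annotation gave 14996 probe sets a single symbol, 1019 several and 7317 none. Symbols were updated by gene ID through RefSeq (14941 found). Per gene, the single-symbol row with the highest mean was used. The diet comparison used limma 3.58.1 (R 4.3.3; lmFit, eBayes, two-sided, Benjamini-Hochberg over 16015 probe sets with a symbol, threshold 0.05), without a block or filter, and tested on simulated data. Paralog pairs were compared by exact permutation, for 2 of the 4 pairs planned.

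The members and lists were chosen with earlier results of these data known. Genes named were the 8 members, up to 3 genes of each list with the smallest limma p, lineage markers, and genes said to be added. Alternatives changed the probe sets, scaling, variance model, block, threshold and row, and left out each array in turn. The number of arrays limits the precision. Of the pathway lists planned, 1 is not reported here.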

Additional observations from a re-analysis of the deposited data

Results flagged for a closer look

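Each diet group of the 8 Hippo genes and 17 further named genes was searched for a pool set apart from the other 3 of its diet (50 groups). The gap was judged against the range of the group, so it can be small in log2 units. In all, 6 were found, where the nominal rate for normally distributed values is about 1 in 20 groups. The share over all tested probe sets was not counted, and many of these genes were named for small p-values, so no excess is read from the count. Nf2 in high fat diet replicate 4 read at 6.56, and the other 3 pools of that diet at 5.53 to 5.66. Amot in control diet replicate 3 read at 5.74, and the other 3 pools of that diet at 5.69 to 5.70, all of them below background. Mink1 and Vgll2 in high fat diet replicate 3, the array that stood apart, read at 6.76 and 7.63, with nearest pools at 6.47 and 7.33. Tead3 in control diet replicate 3 read at 6.71, below 6.86 in the nearest pool, and Scrib in control diet replicate 1 at 6.40, below 6.58.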

How the results depend on the processing

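No Hippo gene passed the 0.05 threshold in any of the settings run: over 158 values of the 8 genes the lowest limma adjusted p was 0.104. Of these values 136 kept their sign, but many could not turn. Changing the probe sets tested, the variance moderation, the block or the row leaves each difference as it was. The 22 that turned came from scaling, array weights or leaving out an array. With the threshold at 0.2, 1 of 8 genes (Wwtr1) passed, where 6689 of all 16015 tested probe sets did, a larger share. The sign turned for Yap1, Lats2, Amot, Amotl2 and Stk4 with median centring (-0.054, -0.12, -0.17, -0.11 and -0.10), quantile normalization (-0.034, -0.12, -0.17, -0.053 and -0.050) and cyclic loess (-0.17, -0.19, -0.24, -0.22 and -0.21), and for Stk4 with array weights (-0.020). Ccn1 turned with quantile normalization (-0.0048) and cyclic loess (-0.088), Cdx2 with median centring (-0.11) and cyclic loess (-0.10), and Mob1a on its other probe set (+0.49). Leaving out single arrays gave differences of -0.0071 to +0.30 for Yap1, -0.34 to +0.019 for Nf2, -0.11 to +0.0097 for Sav1, -0.093 to +0.33 for Stk4, -0.18 to +0.14 for Amot -0.027 to +0.21 for Cdx2, and 0.35 to 0.88 for Wwtr1. The median of the 8 genes was -0.11 with median centring, -0.22 with cyclic loess, and 0.01 to 0.10 with an array left out. Members past an unadjusted p of 0.05 numbered 1 with array weights and 0 to 1 with an array left out (Wwtr1, higher), and 1 with cyclic loess (Sav1, lower). With cyclic loess 1488 of all 16015 tested probe sets passed that rule, 44.1% of them higher. The shares over all probe sets with array weights or an array left out are not given here, so nothing is read from those counts. Probe sets called numbered 3 over the whole table, 0 with quantile normalization, cyclic loess and the replicate block, and 0 to 2 with an array left out. Of the probe sets with an unadjusted p below 0.05, the share that read higher was 94.4% in the deposited values, 67.3% with median centring, 76.8% with quantile normalization and 44.1% with cyclic loess. Above the receptors' 99th percentile on all arrays lay 0 of 8 Hippo genes, and 4 above the 95th. Without single arrays, the Amot minus Amotl2 difference lay between -0.25 and +0.070 and that of Yap1 minus Wwtr1 between -0.74 and -0.26. Same-numbered pools did not deviate together (r from -0.02 to 0.08 over 4 pairs, with 1 of 4 best matched by its own number), and with the replicate block 0 of 8 Hippo genes were called. The causes of these shifts were not tested, apart from scaling, which removes the array-wide offset by construction. Each measured Hippo gene had a single row, so other choices of row gave the same values.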

Other observations

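Some pathway genes outside the 8 were set apart by 1 pool, no more often than tested probe sets at large. They are described after the values were seen. Of 80 measured pathway genes, 4 had a pool more than 2 log2 units from the nearest pool of its own diet, against 6.82% of all 16015 tested probe sets, and 0 of the 8 Hippo genes did. Stk38l, a kinase related to Lats, read at 9.73 in high fat diet replicate 1, with the other high fat diet pools at 4.30 to 4.77 and control diet pools at 4.05 to 7.22. The polarity scaffold Dlg1 read at 9.06 in high fat diet replicate 2, with the other high fat diet pools at 5.87 to 6.83 and control diet pools at 6.85 to 9.52. In high fat diet replicate 3, the YAP-binding adaptor Ywhab read at 7.20, with the other high fat diet pools at 10.35 to 11.55 and control diet pools at 10.55 to 11.23. Mob1a read at 10.78 in control diet replicate 3, above 7.09 to 8.28 in the other control diet pools.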
